A study of Mus musculus with 157 samples.

Results

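The mitochondrial respiratory chain is built mostly from proteins of nuclear genes, and the 90 nuclear genes described here are those found by symbol among the 36102 gene symbols of the mouse expression tables. The symbols chosen were those that begin with Nduf and a subunit letter with a number, Sdha to Sdhd, those that begin with Uqcr, Cyc1, Cycs, Cox4 to Cox8 and those that begin with Atp5. Symbols with -ps in the name were left out, and no other screen for pseudogenes was made. They comprise 40 genes of complex I, 4 of complex II, 9 of complex III, cytochrome c itself, 19 of complex IV and 17 of complex V. Ndufa4 is counted with complex I because of its symbol, although its protein is now usually assigned to complex IV. The study profiled RNA and its N6-methyladenosine (m6A) marks in mouse blood-forming cells, in 157 samples. Its Mettl3 set had 14 input and 14 immunoprecipitated (IP) libraries labelled Mettl3 -/-, a loss of the enzyme that writes m6A on messenger RNA, and as many of the wild type. Each genotype had 2 libraries in each of 7 types, from the stem cells LT.HSC and ST.HSC through MPP, CMP, MEP and GMP to MkP. Its Igf2bp2 set had 2 libraries of LT.HSC labelled Igf2bp2 -/-, a loss of an m6A reader, and 2 of the wild type. A wild-type atlas had 32 input libraries and 32 IP libraries made with an anti-m6A antibody, 2 of each in 16 cell types. Metabolic labelling with thiouridine, read as T-to-C changes, gave new RNA in 12 wild-type libraries of 6 types and the decay of labelled RNA in LT.HSC and MkP at 7 chase times, 0.5 h to 24 h, in 21 samples. The labels give 100 mM thiouridine for 3 h for new RNA. For the chase they give 10 uM for 24 h and then medium with 10 mM uridine. The first dose is printed as labelled, and its unit could not be checked here. No source used here gives the driver or timing of any Cre, the age of the mice or how many animals a library holds. The p-values therefore reflect the spread among these libraries alone, and that spread may be technical.

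Complexes I and II pass electrons from NADH and succinate to ubiquinone, complex III passes them to cytochrome c, and complex IV passes them to oxygen. Complexes I, III and IV pump protons, and complex V, the ATP synthase, uses the returning protons to make ATP. Long-term haematopoietic stem cells (LT.HSC) are mostly quiescent and are known for reliance on glycolysis and low use of respiration, while dividing progenitors depend more on it. The transcription factors NRF1 and GABP, an ETS family factor, and the coactivators of the PGC-1 family are known regulators of nuclear respiratory chain genes.

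The 6 members shown here are given by the 200 bases before their annotated start, because they stand for complexes I, II, IV and V and cytochrome c among the genes described or plotted below and include a pair of paralogues whose RNA peaked in different types. Atp5g1 and Atp5g2 encode the same mature c subunit of the ATP synthase rotor, Cycs encodes cytochrome c, Cox6a1 the widely used isoform of a complex IV subunit, Sdha the flavoprotein of complex II and Ndufa8 an accessory subunit of complex I. The sequences are from RefSeq on GRCm38.p6, each written 5′ to 3′ on the strand of the gene, here the minus strand in every case. Capitals mark matches on either strand to the NRF1 core (GCGCA, any base, GCGC), the ETS core CCGGAAG or the YY1 core AAGATGGCG, and no 2 matches overlapped in these stretches. They lie at chr11:96075632-96075831 for Atp5g1, chr15:102671048-102671247 for Atp5g2, chr6:50566570-50566769 for Cycs, chr5:115348959-115349158 for Cox6a1, chr13:74350241-74350440 for Sdha and chr2:36049339-36049538 for Ndufa8.
Atp5g1: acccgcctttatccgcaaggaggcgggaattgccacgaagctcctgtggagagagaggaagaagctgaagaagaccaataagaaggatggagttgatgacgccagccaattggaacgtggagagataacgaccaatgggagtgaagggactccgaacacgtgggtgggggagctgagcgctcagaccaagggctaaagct
Atp5g2: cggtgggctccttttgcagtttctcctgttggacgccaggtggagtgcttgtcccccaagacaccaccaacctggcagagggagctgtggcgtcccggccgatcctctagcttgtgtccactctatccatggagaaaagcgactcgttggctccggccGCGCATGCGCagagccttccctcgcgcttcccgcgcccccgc
Cycs: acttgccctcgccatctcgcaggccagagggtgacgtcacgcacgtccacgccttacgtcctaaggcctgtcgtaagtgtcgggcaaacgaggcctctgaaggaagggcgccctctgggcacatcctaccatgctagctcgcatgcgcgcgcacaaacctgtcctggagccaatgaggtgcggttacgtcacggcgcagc
Cox6a1: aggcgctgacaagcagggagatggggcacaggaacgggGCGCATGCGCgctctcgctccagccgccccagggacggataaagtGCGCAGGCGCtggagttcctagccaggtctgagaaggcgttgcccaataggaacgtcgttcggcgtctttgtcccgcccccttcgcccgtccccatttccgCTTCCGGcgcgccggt
Sdha: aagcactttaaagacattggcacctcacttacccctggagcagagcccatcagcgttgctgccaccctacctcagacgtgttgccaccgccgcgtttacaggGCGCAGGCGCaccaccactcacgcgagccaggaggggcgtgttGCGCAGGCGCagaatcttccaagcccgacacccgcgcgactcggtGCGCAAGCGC
Ndufa8: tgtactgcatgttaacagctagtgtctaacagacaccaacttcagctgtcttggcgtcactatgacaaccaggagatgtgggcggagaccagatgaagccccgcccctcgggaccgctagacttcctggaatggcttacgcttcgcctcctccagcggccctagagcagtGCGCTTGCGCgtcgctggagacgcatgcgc
The paralogues Atp5g1 and Atp5g2 differed here: the stretch of Atp5g1 held none of these letters and that of Atp5g2 held 1 NRF1 core. Sdha held 3 NRF1 cores, Cox6a1 held 2 with 1 ETS core, Ndufa8 held 1 NRF1 core and Cycs held none. Over windows of 300 bases, which end shortly after the start, 69 of the 90 members had a RefSeq entry. The NRF1 core was present in 17 of them (24.6%), against 5.19% of all 27025 genes in that table. The ETS core was also present in 17 members (24.6%), against 9.93% of all genes, and the YY1 core in 7 (10.1%), against 1.64%. By complex, the NRF1 core was present in 7 of 32 members of complex I, 2 of 3 of complex II, 1 of 5 of complex III, 1 of 13 of complex IV and 6 of 15 of complex V. A match is a description of letters and not a binding site.

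To 3 significant digits, the input libraries held 8230000 to 21500000 recovered reads in the atlas and 3420000 to 20200000 in the Mettl3 set. The deposited input values are counts divided by a size factor. Their totals ranged from 6810000 in an LT.HSC library to 113000000 in a Monocyte library. Atlas RNA comparisons between named types, or of LT.HSC with the rest, are also given with every library scaled to the same total of reads. The test among all types, the medians by type, the types of highest or lowest mean and IP minus input are not given that way. Marker genes chosen for Erythroid, MkP, GMP and B_cell each had their highest mean in that type. Mecom was at 1424 and 1557 in LT.HSC, against 19.6 and 12.0 in GMP. Procr and Hlf, also chosen for LT.HSC, had higher means in ST.HSC (1395 and 1425) than in LT.HSC (1110 and 1166). Of the genes chosen for Monocyte, Ly6c2 and Ms4a6c were highest there, with means of 229236 and 53462. Csf1r, Ccr2 and F13a1, also chosen for Monocyte, were highest in DC, CLP and Neutrophil. None of Il7r, Dntt, Rag1, Rag2 and Flt3, chosen for CLP, was highest in CLP. In the libraries labelled CD4, Cd8a was at 12002 and 11930 and Cd4 at 7.77 and 13.7, whereas those labelled CD8 had Cd8a at 80.3 and 30.9 and Cd4 at 1510 and 1482, so both are named by their label only. The Monocyte libraries carried the neutrophil gene S100a8 at 6461350 and 7768030, above 462053 and 504979 in Neutrophil. S100a9, Ltf, Ngp, Camp and Retnlg, the other genes chosen for Neutrophil, also had their highest mean in Monocyte. The MkP libraries of the atlas carried the granulocyte gene Mpo at 573183 and 442750 beside their own Pf4 at 16351 and 76286, and the CLP libraries carried Siglech, a plasmacytoid dendritic cell gene, at 19213 and 14746. The DC libraries had the B cell gene Cd79a at a mean of 9475, against 433160 in B_cell, and globin genes took 0.978% and 0.295% of their reads. Of Flt3, Siglech, Cd74, H2-Aa, Itgax and Irf8, chosen for DC, only Itgax was highest in DC. What part such mixed signals had in the results was not tested. In bulk RNA, fewer cells of a type and less RNA per cell cannot be told apart.

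Across the 16 cell types, nuclear respiratory chain genes were lowest in DC and in the earliest stem and progenitor cells and highest in GMP and Monocyte. On the log2(value + 1) scale, the median over the 83 members that passed the filter on low values lay 1.14 under the mean of the 16 types in DC (-1.14) and at -0.98 in LT.HSC, -0.79 in ST.HSC and -0.55 in MPP. It lay at 0.69 in GMP, 0.67 in Monocyte, 0.52 in B_cell and 0.46 in MEP. The same median over all 17165 genes tested was 0.18 in DC, 0.16 in LT.HSC, -0.23 in GMP and -0.21 in Monocyte, so the members went the other way from the typical gene in those types. Their sum as a share of recovered reads gave another order: it was 4.32% ± 0.12 in MEP, 3.66% ± 0.52 in LMPP and 3.22% ± 0.28 in GMP, against 2.07% ± 0.11 in LT.HSC, 1.36% ± 0.04 in DC, 1.03% ± 0.07 in Erythroid and 0.64% ± 0.02 in Monocyte (SD, n = 2 each). The globin genes took 43.4% and 51.0% of the reads in the Erythroid libraries. In the limma test among types, 82 of 83 members differed, where 92.8% of all genes did. The exception was Cox7a2l, which encodes a factor that joins complexes III and IV (adjusted p = 0.151).

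**Figure D1:**
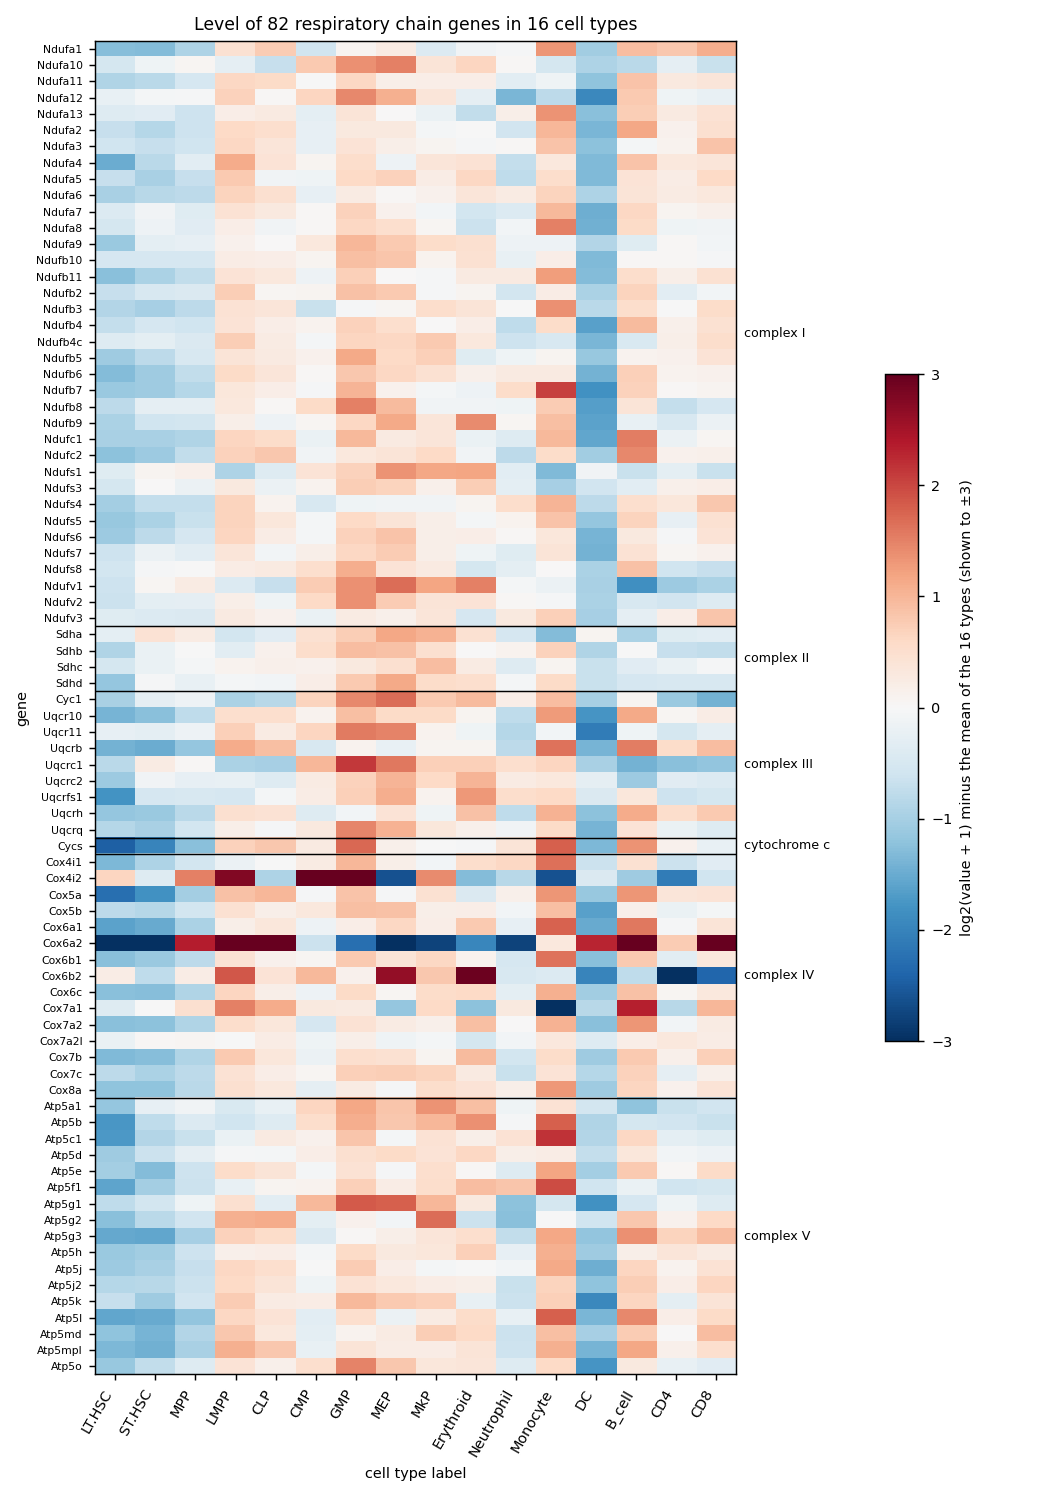
Heat map of 82 of the 83 nuclear respiratory chain genes tested (rows, grouped by complex) in 16 cell types (columns), showing log2(value + 1) minus the gene's mean over the types, drawn from -3 to 3. DC and LT.HSC are lower for most rows and GMP and Monocyte higher, while some rows of complexes I and II are high in MEP and low in the lymphoid types.

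The complexes did not share the same peak. Complex V and complex IV were highest in Monocyte, with medians of 1.07 and 0.90, as was cytochrome c with 1.80. Complexes III and II were highest in MEP, with 1.05 and 1.01, and next in GMP, with 0.90 and 0.76. Complex I was highest in GMP with 0.69. Complex II was the only group with a negative median in B_cell, at -0.43, where complex IV was at 0.79 and complex V at 0.64. Of the 83 members, 39 had their lowest mean in DC, 20 in LT.HSC and 10 in ST.HSC, and 27 had their highest in Monocyte, 20 in GMP and 11 in B_cell. No member was highest in LT.HSC, ST.HSC or MPP. Replicates differed in some types: the member median was -0.28 and 0.86 in the MkP libraries, 1.12 and 0.27 in GMP, 0.87 and 0.04 in LMPP and 0.15 and 0.99 in B_cell.

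The balance between core subunits and the rest also varied among types, with no test made of it. The 20 catalytic and core subunits, which carry the redox centres, the core proteins and the motor of the synthase, were set against the other 63 members. Their median minus that of the others was -0.84 in the libraries labelled CD8, -0.83 in B_cell, -0.81 in LMPP, -0.62 in those labelled CD4, -0.43 in CLP and -0.08 in Monocyte. It was 0.62 in ST.HSC, 0.53 in MEP, 0.49 in CMP, 0.41 in MPP, 0.35 in GMP and in Neutrophil, 0.34 in DC, 0.31 in Erythroid, 0.17 in LT.HSC and 0.14 in MkP. The B_cell libraries were at -0.16 and -1.36 and the CLP libraries at -0.14 and -0.57, so those values rest mainly on the second library of each. The Monocyte libraries, at -0.24 and 0.03, and the MkP libraries, at 0.32 and -0.02, lay on both sides of 0. Sdha was at 1099 and 913 in Monocyte and 1738 and 956 in B_cell, against 4772 and 6419 in MEP and 6303 and 4097 in MkP. Ndufs1, the largest iron-sulphur subunit of complex I, was at 223 and 219 in Monocyte, against 1244 and 1592 in MEP.

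LT.HSC stood low for cytochrome c and for subunits of complexes IV, III and V. Cycs was at 1300 and 735 in LT.HSC, against 1038 to 32988 in the 30 libraries of the other 15 types with a median of 5846. Only an ST.HSC library of the 30 lay under the higher LT.HSC library. Cox5a, a subunit of complex IV, was at 1084 and 852 in LT.HSC, against 1315 to 17412 in the others with a median of 5287, with no overlap. Uqcrfs1, the Rieske iron-sulphur protein of complex III, was at 698 and 508 in LT.HSC, against 1214 to 5127 in the others with a median of 2054, again with no overlap. Sdha overlapped throughout, at 2284 and 1772 in LT.HSC, against 913 to 6419 in the others with a median of 2507.

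Against the other 15 types, 57 of 83 members were lower in LT.HSC and none higher at an adjusted p under 0.05 (limma), where 17.5% of all genes were lower and 22.8% higher. None was higher at an unadjusted p under 0.05 either, and 68 were lower, where 21.1% of all genes were. The log2 difference was -2.60 ± 0.44 for Cycs (SE, adjusted p = 6.17e-05), -2.41 ± 0.35 for Cox5a (adjusted p = 6.72e-06) and -1.90 ± 0.21 for Uqcrfs1 (adjusted p = 1.64e-07). Of complex V, 15 of 17 members were lower, among them Atp5b, the catalytic beta subunit (-1.86), and Atp5c1, the central stalk (-1.83). Lower counts were 20 of 37 in complex I, 3 of 4 in complex II, 7 of 9 in complex III and 11 of 15 in complex IV. Sdha (-0.32), Ndufs1 (-0.38), Ndufa12 (-0.24) and Uqcr11 (-0.26) did not pass. Without the second LT.HSC library the count was 30.

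With every library scaled to the same total of reads, the median of all genes in that comparison was 1.21 in place of 0.17, and the median of the members was 0.04 in place of -1.05. Relative to all genes the members were at -1.17 on that scale and at -1.22 on the deposited scale. On the scale of equal totals 10 members were lower (background 6.57%) and 14 higher (background 59.9%). The 10 were lower on both scales. They were Cycs (-1.51 at equal totals), Cox5a (-1.33), Uqcrfs1 (-0.82), Atp5c1 (-0.74), Cox6a1 (-0.63), the stator subunit Atp5f1 (-0.61), Atp5l (-0.58), the rotor paralogue Atp5g3 (-0.54), Ndufa4 (-0.51) and the muscle isoform Cox6a2. Of the 14 that were higher, 10 belong to complex I, and Ndufs3 and Sdhc were lower on one scale and higher on the other.

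**Figure D2:**
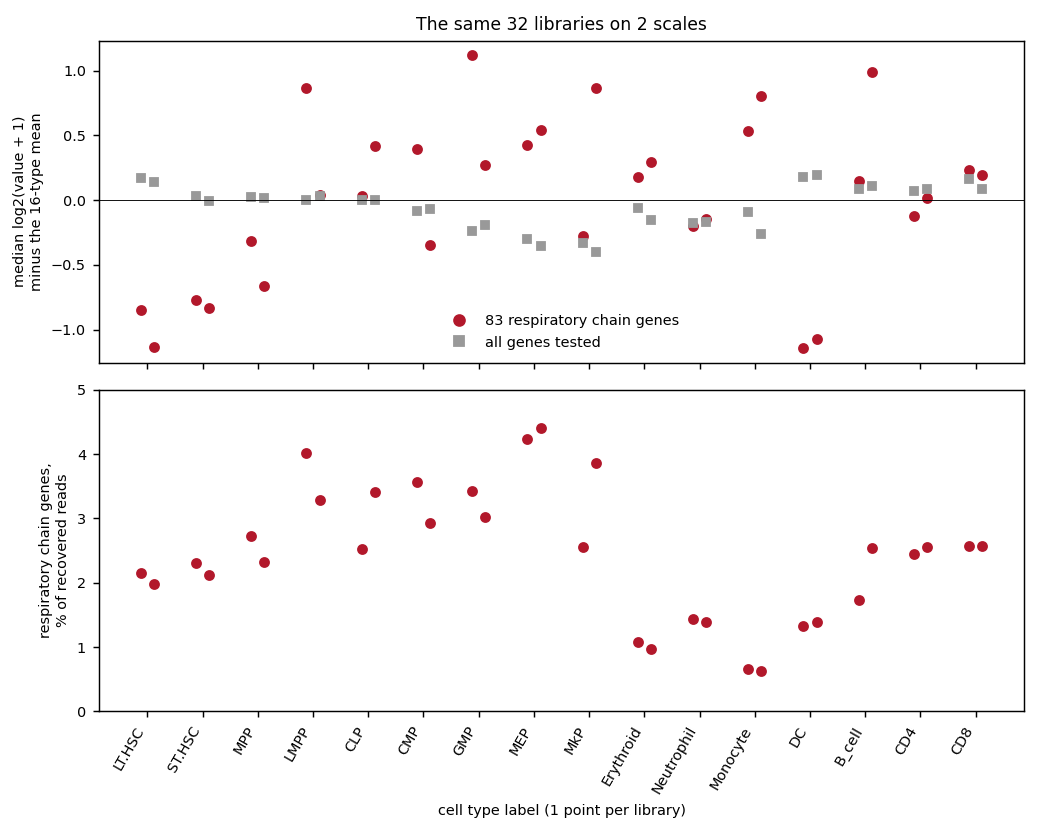
Upper panel, the median over members and over all genes in each atlas input library, as log2(value + 1) minus the 16-type mean. Lower panel, the sum of the members as a percent of recovered reads in each library. LT.HSC is low in the upper panel and at 2.15% and 1.99% of reads in the lower one, and Monocyte is high in the upper panel and lowest in the lower one.

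MPP, the next multipotent stage, differed from LT.HSC in 2 members, both higher (5.94% of all genes were higher and 4.87% lower). Uqcrfs1 was at 1685 and 1276 in MPP, against 698 and 508 in LT.HSC, without overlap, with a log2 difference of 1.30 ± 0.29 (SE, limma, adjusted p = 0.00354). Cox6a2, the muscle isoform of a complex IV subunit, was at 545 and 512 in MPP, against 0.461 and 0 in LT.HSC, which stand for 1 read and 0 reads. At equal totals Cox5a (0.94) and Ndufa4 (0.89) were also higher (background 5.29% higher and 8.97% lower). Of the 83 members, 12 had an unadjusted p under 0.05, all higher in MPP, where 11.8% of all genes were. Without the first MPP library or the second LT.HSC library 1 member passed, and without either B_cell library, which enters only the shared estimate of spread and the filter, 6 did.

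MkP, the megakaryocyte progenitor, had higher values than LT.HSC for members of every complex. Cox5a was at 4356 and 9288 in MkP, against 1084 and 852 in LT.HSC. Atp5a1, the alpha subunit of the synthase, was at 14926 and 20142 in MkP, against 3523 and 2614 in LT.HSC. Atp5g2 was at 668 and 1263 in MkP, against 227 and 63.5 in LT.HSC, and MkP was its highest type. None of these groups overlapped. In the same fit 64 of 83 members were higher and none lower, where 20% of all genes were higher and 32.1% lower. All 17 members of complex V and all 4 of complex II were higher, with 8 of 9 of complex III, 11 of 15 of complex IV and 23 of 37 of complex I. Apart from Cox6a2, whose LT.HSC values stand for at most 1 read, the largest log2 differences were those of Atp5g2 (2.92), Atp5b (2.74), Cox5a (2.73 ± 0.47 SE, adjusted p = 5.30e-05) and Atp5a1 (2.51), beside 2.43 for Cycs. At equal totals 30 members stayed higher (background 7.63%) and Cox7a2l alone was lower (-0.71, background 46%), while the median of all genes was -1.21. Without the second MkP library 23 members were higher, and without the second LT.HSC library 40 were.

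The Mettl3 set holds both types in wild-type and knockout libraries. There, in the knockout, MkP minus LT.HSC gave no member past the threshold, with a member median of -0.39 against -0.08 for all genes, and no member had an unadjusted p under 0.05. In its wild-type libraries no member passed either, with a median of 0.65 against -0.14 for all genes, although 11 members were higher and 1 lower at an unadjusted p under 0.05, where 5.57% of all genes were higher and 9.41% lower. The background was 0.0266% higher and 0.0798% lower in the knockout and 0.639% higher and 1.63% lower in the wild type. Mpo was at 1407 and 37011 in the knockout MkP libraries there, against 32197 and 27726 in the wild-type MkP libraries. These comparisons were chosen after the values were seen.

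**Figure D3:**
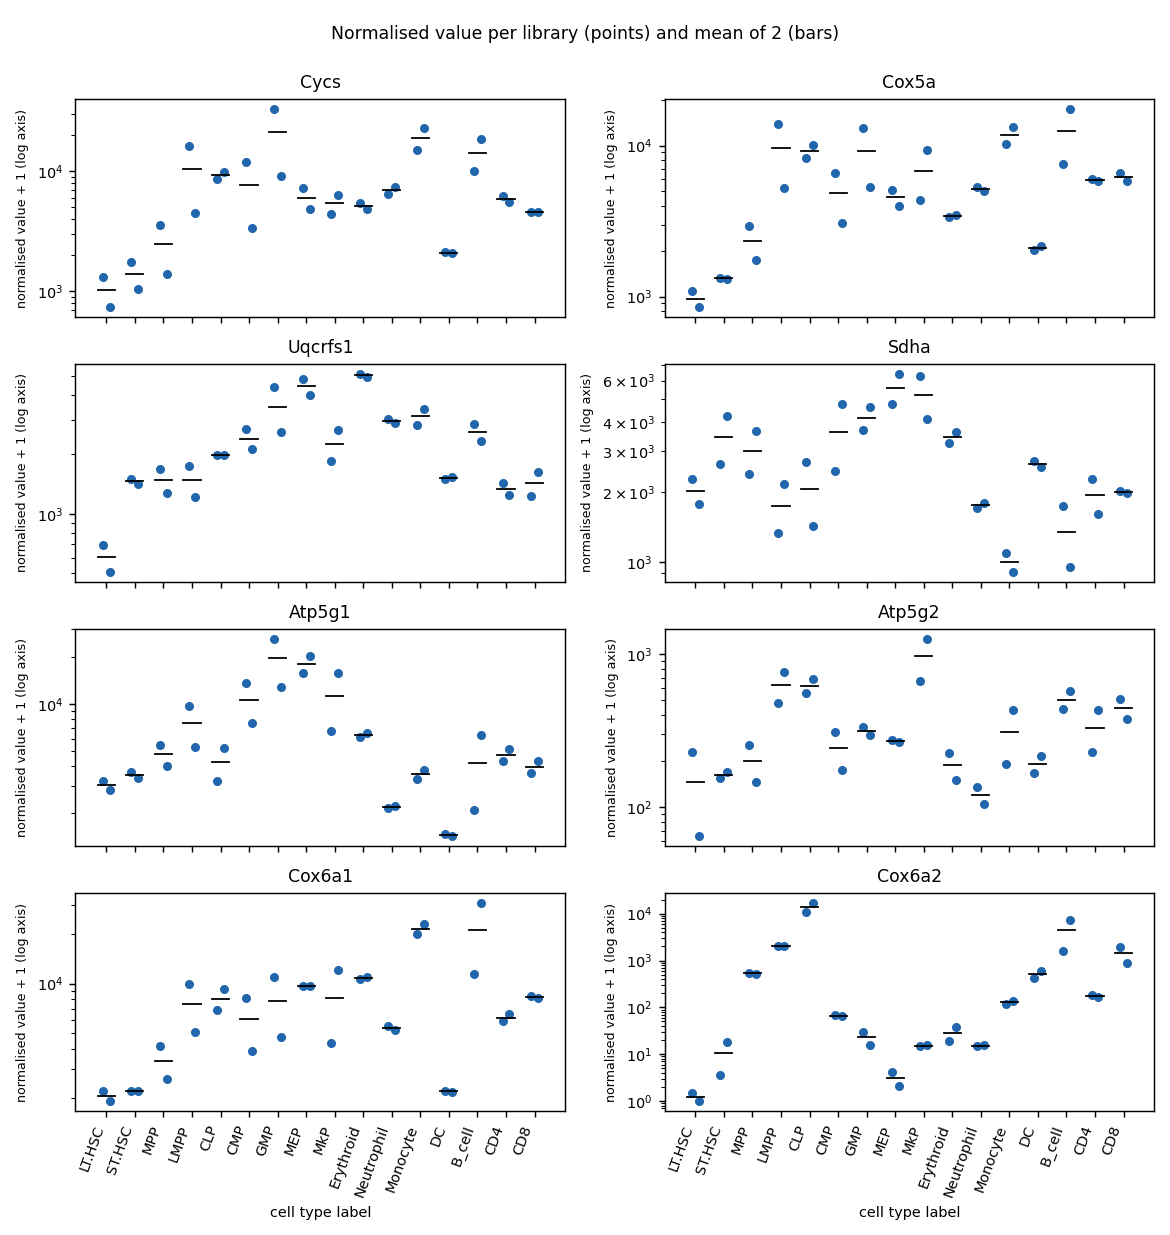
Deposited value (log axis) of Cycs, Cox5a, Uqcrfs1, Sdha, Atp5g1, Atp5g2, Cox6a1 and Cox6a2 in each of the 32 atlas input libraries, by cell type. Cox5a and Uqcrfs1 in LT.HSC lie under all other types, Sdha does not, and Cox6a2 spans from 0 in an LT.HSC library to 16751 in a CLP library.

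Erythroid cells differed from MEP, the megakaryocyte and erythroid progenitor, in few members on the deposited scale. Uqcr11, a small subunit of complex III, was at 5021 and 5813 in Erythroid, against 13469 and 20160 in MEP. Atp5g1 was at 6164 and 6524 in Erythroid, against 15749 and 20280 in MEP. Neither pair overlapped, and the log2 differences were -1.61 ± 0.42 and -1.49 ± 0.45 (SE, limma, adjusted p = 0.00409 and 0.0127). The accessory complex I subunits Ndufa12 (-1.32), Ndufa8 (-1.16), Ndufb5 (-0.96) and Ndufa10 (-0.85) were lower too, which makes 6 lower, where 13.3% of all genes were lower and 20.7% higher. Cox6a2 was higher, at 17.7 and 36.9 in Erythroid, against 3.19 and 1.05 in MEP. At equal totals, 79 of 83 were lower (background 45%), 1 was higher (background 5.53%) and the median was -2.09 against -1.18 for all genes. Without the first or second MEP library 3 or 1 members passed, and without either Erythroid library 2.

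Neutrophils had less of many subunits than GMP, the granulocyte and monocyte progenitor. Atp5g1 was at 2159 and 2218 in Neutrophil, against 26263 and 12927 in GMP. Ndufa12 was at 1595 and 1439 in Neutrophil, against 16303 and 6913 in GMP, and Uqcr11 at 3404 and 3092 in Neutrophil, against 24597 and 12211 in GMP. The groups did not overlap for any of these. Their log2 differences were -3.07 ± 0.45, -2.81 ± 0.48 and -2.42 ± 0.42 (SE, limma, adjusted p = 7.33e-06, 5.25e-05 and 5.45e-05). In all, 34 members were lower and none higher, where 18.1% of all genes were lower and 20.5% higher, and none was higher at an unadjusted p under 0.05. They were 17 of complex I, 1 of complex II (Sdha, -1.23), 5 of complex III, 5 of complex IV and 6 of complex V. Cycs, at 6486 and 7367 in Neutrophil against 32988 and 9187 in GMP, did not pass. At equal totals 56 were lower (background 18%), including 33 of the 34. Without the first GMP library 9 were lower, and without the first or second Neutrophil library 16 or 19.

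Several subunits have paralogues that are known mainly from other tissues, and the level of some of these varied widely among the types. Cox6a2, known from heart and skeletal muscle, was at 10807 and 16751 in CLP, 2008 and 2077 in LMPP, 1575 and 7368 in B_cell and 430 and 604 in DC, beside Siglech at 19213 and 14746 in CLP, 335 and 290 in LMPP, 2025 and 3291 in B_cell and 5629 and 6172 in DC. CLP had the highest values of both genes, and whether the cells with Siglech carried the Cox6a2 RNA was not tested. Cox6a2 was at 13.9 and 14.6 in MkP and 3.19 and 1.05 in MEP. Cox6b2, known from testis, was at 800 and 801 in Erythroid and 615 and 695 in MEP, against 6.47 and 11.6 in the libraries labelled CD4. Cox4i2, known from lung and from low oxygen, was at 66.5 and 65.1 in GMP, 56.6 and 42.5 in CMP and 53.7 and 31.3 in LMPP, and it was listed at 0 in both MEP and both Monocyte libraries. Cox7a1, another muscle isoform, reached 38.9 and 71.0 in B_cell. The rotor paralogues peaked apart, Atp5g1 in GMP and MEP, Atp5g2 in MkP and Atp5g3 in B_cell. Ndufa11b, Ndufa4l2, Ndufs6b, Cox6c2, Cox7b2, Cox8b and Cox8c did not pass the filter on low values in any comparison of the atlas.

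Partner genes of the pathway did not all move with the nuclear subunits. Of the 13 respiratory chain genes of mitochondrial DNA, 6 were lower in MkP than in LT.HSC and none higher. At equal totals 9 were lower, these 6 among them, where 46% of all genes were lower. In that comparison mt-Nd5, a complex I subunit, was at -2.56 and mt-Co1, the catalytic subunit of complex IV, at -2.54, and the genes of mitochondrial DNA took 0.302% and 0.466% of reads in MkP, against 1.76% and 1.41% in LT.HSC. Between Erythroid and MEP 10 of the 13 were higher and none lower, but none passed at equal totals, where their median was 0.17, against -1.18 for all genes. Of 14 citric acid cycle genes, 11 were higher in MkP than in LT.HSC, with Idh3a at 2.32 and Fh1 at 2.17, and 5 of them were also higher at equal totals. In Neutrophil 7 of the 14 were lower than in GMP on both scales, with Idh2 at -2.97. Of 46 assembly factors, which build the complexes without staying in them, 2 were higher and 19 lower in Erythroid than in MEP, and 2 were higher and 21 lower in Neutrophil than in GMP. At equal totals all 19 lower in Erythroid and 20 of the 21 lower in Neutrophil were called again, and none of the 4 that were higher. In Erythroid that scale gave 43 of the 46 lower, where 45% of all genes were and their median was -1.18, so the repeat there adds little. In MkP 13 assembly factors were higher than in LT.HSC and 3 lower, against 2 higher and 10 lower at equal totals. On that scale 7.63% of all genes were higher there and 46% lower. Among 9 regulators, with LT.HSC set against the other types, the coactivator Ppargc1a (1.99) and the nuclear receptor Esrra (0.95) were higher on the deposited scale. They were higher at equal totals too, where 59.9% of all genes were, so that second call adds little. Tfam, which packages mitochondrial DNA, was lower on the deposited scale (-0.69) and at 0.39 at equal totals (adjusted p = 0.142), and Nrf1 was lower on the deposited scale (-0.50) and higher at equal totals (0.58). The background of each comparison on the deposited scale is the share of all genes given above for it.

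The m6A signal of a gene was its IP level less its input level, both on the log2 scale. As IP and input were scaled apart, levels are given as the percentile of a gene among all 16753 genes of a cell type, and tests were made only on differences between types. Members were spread over most of the range. Uqcrc1, a core protein of complex III, was lowest, with a mean percentile of 2.52 over the 16 types and a range of 0.275 to 12.4. Ndufv1, the NADH-binding subunit of complex I, averaged 7.69, and Cyc1, cytochrome c1, averaged 7.86. Sdhd, a membrane anchor of complex II, averaged 10.1, and Atp5b averaged 16.4. The highest were the small membrane subunits of the synthase Atp5k (84.1), Atp5md (83.2) and Atp5mpl (82.9). By complex the median percentile was 29.5 for complex II and 48.5 to 63.2 for the others.

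**Figure D4:**
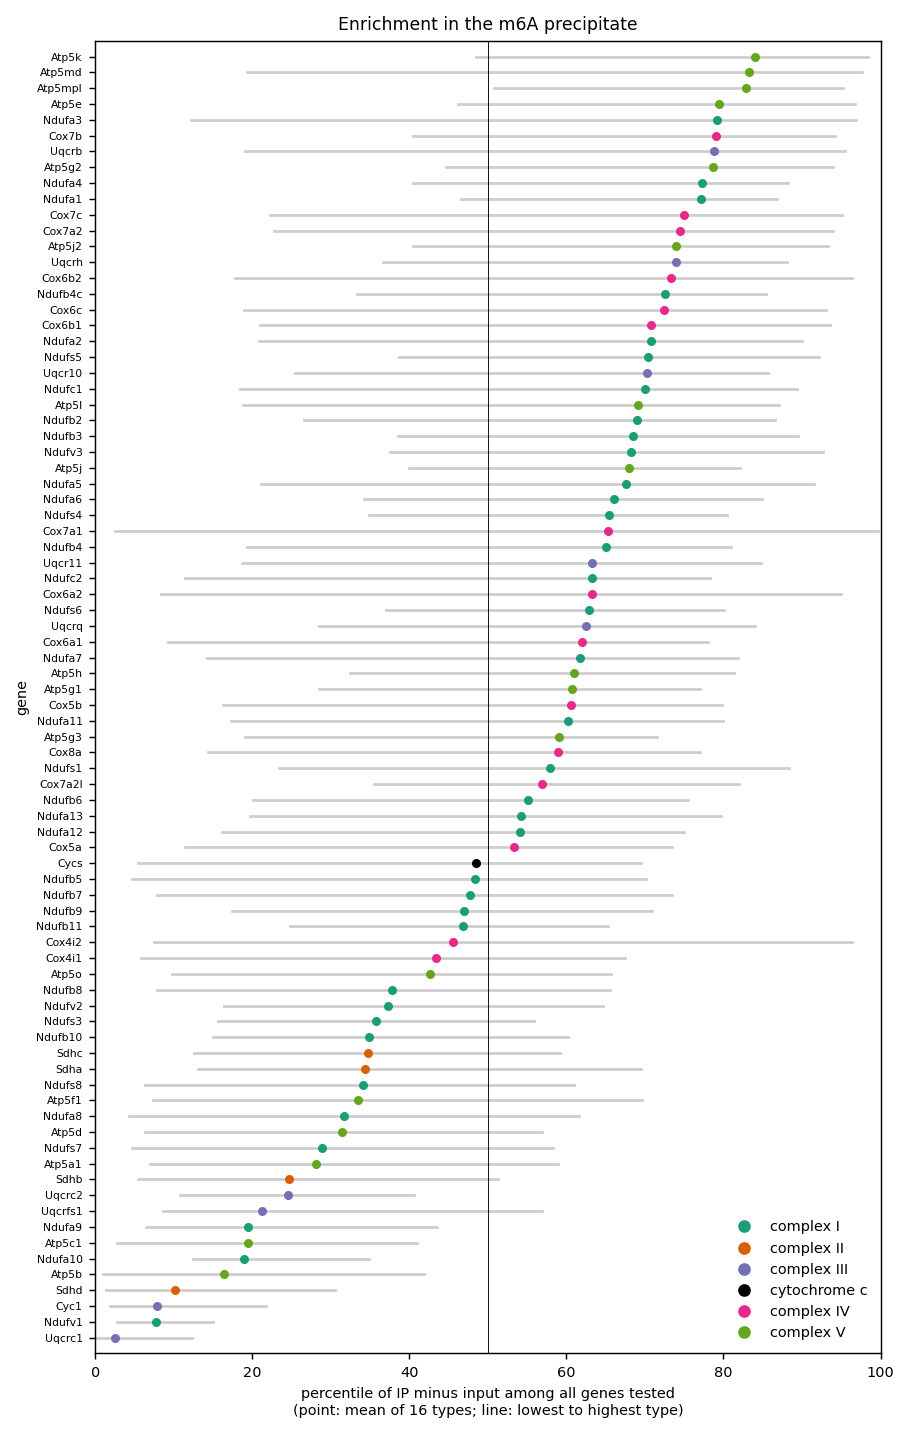
Percentile of IP minus input among all genes for 82 of the 83 members tested, by complex. The point is the mean over 16 cell types and the line spans the lowest to the highest type. Uqcrc1 stays between 0.275 and 12.4, and Atp5k spans 48.4 to 98.4.

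The same quantity moved with cell type. The median percentile of the members was 77.2 in MkP, 75.2 in the libraries labelled CD4 and 75.1 in CLP, against 65.6 in LT.HSC, 29.4 in GMP and 26.6 in B_cell. Replicates disagreed in the low types. The member median minus that of all genes was 0.21 and -1.57 in B_cell, -1.61 and -0.05 in GMP and -0.83 and 0.81 in LMPP. Among types 41 of 83 members differed (limma), where 26.1% of all genes did. The members that passed were 16 of complex I, 2 of complex II, 5 of complex III, 9 of complex IV and 9 of complex V, with the smallest adjusted p for Atp5md (0.000781). LT.HSC minus the other 15 types gave 2 members lower and none higher, where 7.35% of all genes were lower and 2% higher. At an unadjusted p under 0.05, 6 members were higher and 5 lower, where 7.25% and 16.8% of all genes were. Ndufs8, an iron-sulphur subunit of complex I, had an IP minus input of -2.35 in LT.HSC, against -2.06 in LMPP, -1.27 in B_cell and -0.15 to 1.19 in the other types, a difference of -2.40 ± 0.53 (SE, adjusted p = 0.00285). Ndufb6, an accessory subunit, was at -0.36 in LT.HSC, against -0.38 in B_cell, -0.04 in LMPP and 0.17 to 1.91 in the other types, a difference of -1.31 ± 0.35 (SE, adjusted p = 0.0128). Without the first LT.HSC input library 1 member passed, without the first MkP input library 4 did and without the second LT.HSC IP library 5 did.

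Between the Mettl3 knockout and the wild type, a single nuclear respiratory chain gene passed the test on RNA level. Mettl3 RNA was at 274 to 931 in the knockout inputs, against 127 to 656 in 13 of the wild-type inputs and 5370 in the first wild-type LT.HSC library, so this gene count does not separate the genotypes, and no source used here says which part of the gene is deleted. Averaged over the 7 types, only Cox6b2 passed among 83 members (limma), where 7.24% of all genes were higher and 2.89% lower. Cox6b2 ranged from 12.4 to 231 with a median of 44.4 in the knockout, against 64.3 to 332 with a median of 82.7 in the wild type, and the groups overlapped. Its log2 difference was -0.98 ± 0.26 (SE, adjusted p = 0.0171). With 1 mean per genotype and replicate number it did not pass (limma, adjusted p = 0.416). Of the rest, 4 were higher and 5 lower at an unadjusted p under 0.05, where 14.4% of all genes were higher and 11.8% lower. A difference of the effect among types passed for no member (0.0133% of all genes), and no member passed in LT.HSC (0.399% of all genes were higher and 0.14% lower) or in MEP (2.14% higher and 0.00665% lower). Of 46 assembly factors 8 were higher in the knockout, with the copper chaperone Sco2 at 1.77.

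Single types varied in both directions. The member median of the log2 difference was 0.68 in MPP with 77 of 83 positive, against -0.13 for all genes, and it was -0.79 in MkP with 10 of 83 positive, against -0.03 for all genes. In LT.HSC it was 0.33, against -0.16 for all genes, and ranged from -0.56 to 1.18 when single libraries were left out. As a share of reads the members took 1.62% and 2.99% in knockout LT.HSC, against 2.22% and 1.86% in wild-type LT.HSC, and 1.72% and 2.28% in knockout MkP, against 2.58% and 3.26% in wild-type MkP. The megakaryocyte gene Pf4 was at 3137 and 909 in the knockout MkP libraries, against 35563 and 25623 in the wild-type MkP libraries, and its part in the result was not tested. Sdhd had the smallest adjusted p in LT.HSC (0.0807), at 1548 and 3823 in the knockout, against 345 and 1253 in the wild type, without overlap. In wild-type libraries of this set, LT.HSC was lower than the other 6 types for Sdhd (-1.68 ± 0.39 SE, adjusted p = 0.0187) and for Ndufa10 (-1.29 ± 0.36 SE, adjusted p = 0.0427), where 1.9% of all genes were lower and 2.8% higher. The same comparison in the knockout gave no member (0.126% of all genes higher and 0.0732% lower), with 3 lower at an unadjusted p under 0.05, where 4.08% of all genes were. Both comparisons were added after the values were seen. Over 33 alternative settings, the wild-type call of Ndufa10 was kept in 20 and lost in 13, and that of Sdhd was kept in 32. Without the first wild-type LT.HSC library, the one with 5370 for Mettl3, the Sdhd difference in the wild type was -0.75. The member median in the wild type was -0.41 with both LT.HSC libraries, -0.70 without the first and -0.21 without the second.

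**Figure D5:**
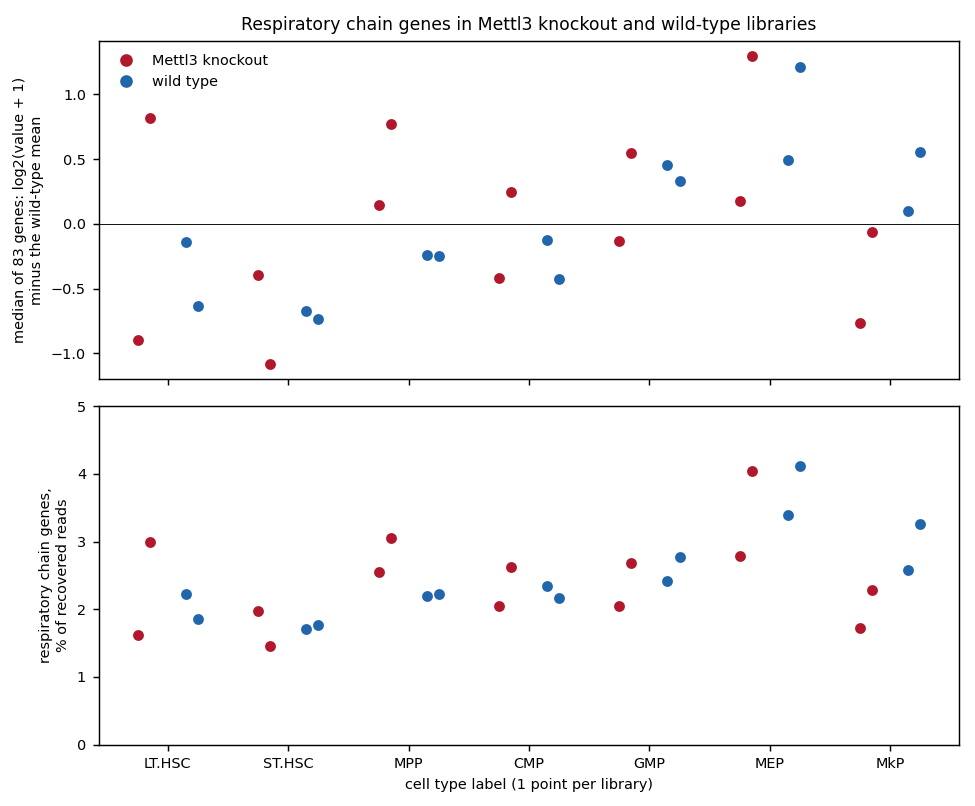
Nuclear respiratory chain genes in the Mettl3 input libraries, with knockout left of wild type in each cell type. The upper panel gives the member median as log2(value + 1) minus each gene's wild-type mean, and the lower panel the members' percent of recovered reads. MEP is high in both genotypes, at 2.79% and 4.04% in the knockout and 3.39% and 4.11% in the wild type.

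In the Mettl3 IP libraries no member passed in edgeR's quasi-likelihood test over the 7 types, where 0.441% of all genes were higher and 0.155% lower. At an unadjusted p under 0.05, 12 members were higher and 1 lower, where 7.78% of all genes were higher and 3.22% lower, and the smallest adjusted p was that of Cox8a, a small complex IV subunit (log2 difference 0.95 ± 0.28 SE, adjusted p = 0.117). DESeq2 called 6 of 88 members, all higher in the knockout, where it called 2.82% of all genes higher and 0.848% lower. For IP minus input no member and no other gene passed in limma (0%), with 6 members higher and 0 lower at an unadjusted p under 0.05, where 2.37% of all genes were higher and 2.07% lower. The scaling takes out any m6A change that all genes have in common, so such a change cannot be seen here.

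In the LT.HSC libraries labelled Igf2bp2 knockout, most nuclear respiratory chain genes had higher values than in the wild type, but none passed the test. Igf2bp2 itself had 61 and 81 counts in the knockout, against 142 and 263 in the wild type. These are raw counts, out of 4680000 and 6490000 in the knockout, against 20000000 and 4920000 in the wild type. For its depth, each knockout library lay above the first wild-type library and below the second, so Igf2bp2 RNA did not separate the genotypes. Ndufb10, an accessory subunit of complex I, was at 399 and 275 CPM in the knockout, against 162 and 102 in the wild type, and Atp5g1 was at 347 and 189 in the knockout, against 127 and 69.8 in the wild type. Atp5h, a stator subunit of the synthase, was at 308 and 189 in the knockout, against 120 and 86.8 in the wild type. These CPM are counts per library total times a TMM factor, which was 0.82 and 1.00 in the knockout, against 1.09 and 1.11 in the wild type, so the knockout excess is larger than per library total alone. These groups did not overlap, and the log2 differences were 1.46 ± 0.48, 1.56 ± 0.54 and 1.38 ± 0.49 (SE, edgeR quasi-likelihood test, adjusted p = 0.662, 0.679 and 0.692). Sdha overlapped, at 74.9 and 231 in the knockout, against 196 and 161 in the wild type, as did Cox5a at 136 and 66.5 in the knockout, against 96.0 and 68.3 in the wild type. Cycs was at 321 and 109 in the knockout, against 123 and 109 in the wild type.

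No member and no other gene passed the adjusted threshold (0%), in edgeR's quasi-likelihood test, and 20 of 81 members were higher and 0 lower at an unadjusted p under 0.05, where 2.49% of all genes were higher and 3.87% lower. DESeq2 called no member, where it called 0.473% of all genes higher and 0.372% lower. The median log2 difference was 0.98 over the members and 0.00 over all genes, and 78 of 81 were positive, against 50.2% of all genes. Both knockout libraries lay above both wild-type libraries for 50 members, where 15.5% of all genes did, and below them for 0, where 22.3% of all genes did. As a share of counts the members took 1.60% and 1.26% in the knockout, against 1.09% and 0.949% in the wild type. The first knockout library was the farthest apart, with a member median of 0.78 and 0.04 in the knockout libraries, against -0.27 and -0.52 in the wild-type libraries, and the median difference ranged from 0.43 to 1.34 when single libraries were left out. The depth, to 3 significant digits, was 4680000 and 6490000 counts in the knockout, against 20000000 and 4920000 in the wild type.

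New RNA after 3 h of labelling was low for these genes relative to others. The T-to-C value of the typical member was 0.451% and 0.421% in LT.HSC, against 0.846% and 0.490% for the typical gene in the same libraries, and it was under that of all genes in each of the 12 libraries. In MPP it was 0.636% and 0.769%, against 1.59% and 1.71% for all genes. The median percentile of the members among all genes was 35.4 in LT.HSC and 22.3 to 32.6 in the other 5 types. Among the members with low means over the 12 libraries were Ndufv3 with 0.269%, Ndufa4 with 0.276% and Atp5o, the stalk protein of the synthase, with 0.283%. The highest means were those of Atp5s, a symbol present only in the T-to-C tables (1.80%), Ndufs3, a core subunit of complex I (1.71%), Cox6a2 (1.55%) and Cox7c, a small complex IV subunit (1.33%). Single libraries carried some of them: Atp5s was at 10.4% in the first GMP library, without which its mean was 1.02%, Cox6a2 was at 6.64% and 0% in LT.HSC, and Ndufs3 at 5.52% and 0.624% in GMP. None of the 79 members tested differed among the 6 types or between LT.HSC and the other 5 (limma), and no other gene did (0%). At an unadjusted p under 0.05, 1 member differed among types, where 12.2% of all genes did, and 0 were higher and 2 lower in LT.HSC, where 1.18% and 8.68% of all genes were. The depth behind these ratios is unknown.

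The chase values were deposited by the authors as averages, so they have no SD and no test. LT.HSC had replicate samples at each chase time, but MkP had a single sample at each, so the MkP values rest on no replicates. In MkP, Cycs was at 0.166% after 0.5 h, 0.123% after 1 h, 0.149% after 3 h, 0.0117% after 6 h and 0.0145% after 24 h. Atp5b was at 0.343%, 0.132%, 0.400%, 0.0303% and 0.0719% at those times, so neither fell at each step. In LT.HSC, Cycs was at 0.153% after 1 h, 0.168% after 3 h, 0.00588% after 6 h and 0.0108% after 12 h, with no value above 0 at the other times. Of the 77 members in each table, 63 had a value above 0 at both 0.5 h and 24 h in MkP, with a median ratio of late to early of 0.0935, against 0.220 for all genes. Only 10 did in LT.HSC, with a median ratio of 1.12, against 0.804 for all genes. From 1 h to 12 h the ratio was 0.0812 over 42 members in LT.HSC, against 0.200 for all genes, and 0.540 over 46 members in MkP, against 0.590 for all genes. The order of both types thus turned with the pair of times taken.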

How the data were processed

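RNA was measured in mouse blood cell types as input and anti-m6A IP libraries, in a wild-type atlas and a Mettl3 set, as counts in an Igf2bp2 set, and as T-to-C ratios in 2 labelling designs. The members and gene lists were chosen with earlier results of these data known. The deposited input tables hold a signal, read counts over a library's own size factor, and 100% of their values came out as whole reads within 0.1 of a read. The atlas IP and Igf2bp2 tables hold deposited counts, and the Mettl3 IP table deposited estimated counts, rounded to whole numbers here. The labelling tables hold deposited fractions, printed here as percent, and no source used here states their denominator or depth. The chase values were deposited by the authors as averages, although MkP had a single sample at each chase time. Tools listed in the submitters' processing notes are kallisto, fastp and Trimmomatic, with GRCm38 as the build and no versions.

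Input values were tested as log2(value + 1) with limma 3.58.1 in R 4.3.3, with a variance trend and robust moderation for the atlas, over genes at 10 or more in at least 2 libraries, so fold changes of low genes are understated. All groups of a table entered 1 fit. IP minus input was tested as an interaction after TMM scaling of the IP values. IP libraries of the Mettl3 set and the Igf2bp2 counts were tested with edgeR 4.0.16 (quasi-likelihood, TMM, filterByExpr), with DESeq2 1.42.0 as an alternative. T-to-C percents were tested with limma on a log2 scale after adding 0.1, where 6 or more libraries had a value above 0. Adjusted p-values are Benjamini-Hochberg over all genes tested, with a threshold of 0.05. The scripts were tested on simulated data. Alternatives were the pseudocount, the filter, TMM, edgeR on recovered reads, a replicate block and leaving out each library, and, added after seeing the data, equal totals. Genes named are up to 2 members per complex with the highest and lowest log2 difference among those with a mean of at least 50, the core subunits, the isoforms and, per pathway list, up to 2 highest and 2 lowest. Other members that are named were chosen after their values were seen. The values of 1 member are not reported here, though counts and medians include it. The atlas IP libraries held 10800000 to 24600000 counts and the Mettl3 IP libraries 819000 to 22900000, to 3 significant digits.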

Additional observations from a re-analysis of the deposited data

Results flagged for a closer look

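The difference in m6A signal among the 16 types, 41 of 83 members, was marked for a closer look because the effect of precipitation differed between cell types in a test of the difference itself. Ndufs8, an iron-sulphur subunit of complex I, was marked for the same reason, with a log2 difference in IP minus input of -2.40 between LT.HSC and the other 15 types. Ndufb6, an accessory subunit of complex I, was marked with a log2 difference of -1.31. LMPP and B_cell were also low for both genes, and their replicates differed in the member median. The 2 LT.HSC IP libraries had a correlation of 0.768 with each other, the lowest of the 16 atlas IP groups. The LT.HSC member median of IP minus input, less that of all genes, was 1.01 and 0.26 in the 2 replicates.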

How the results depend on the processing

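Depth and replicate number limit what could be seen: most groups held 2 libraries, the Mettl3 IP libraries went down to 819000 reads, and the depth behind the T-to-C values is unknown. In the atlas 82 of 83 members differed among types whichever library was left out. With every library scaled to the same total, an alternative chosen after seeing the data, the members called were 24 in LT.HSC against the other 15 types, 4 in MPP, 31 in MkP, 80 in Erythroid and 56 in Neutrophil. TMM on top of the deposited values gave 5 in MPP and 16 in Erythroid, and edgeR on recovered reads gave 8 and 20. At equal totals the sign turned for 41 of 83 members in LT.HSC, 20 in MPP, 17 in MkP, 30 in Erythroid and 5 in Neutrophil, called or not. Of the members called in the first fit and named by the rule, those that turned in LT.HSC were Atp5e (0.0066), Atp5j2 (0.18), Cox5b (0.24), Cox7c (0.24), Cyc1 (0.063), Ndufs3 (0.53), Ndufv1 (0.42), Sdhb (0.12), Sdhc (0.52) and Uqcrq (0.17), and in MkP Ndufs3 (-0.18) and Ndufv3 (-0.13). The scaling itself moved the median of all genes, as given above, and no other cause was tested.

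When each library was left out in turn, the members called ranged from 30 to 66 in LT.HSC, 1 to 6 in MPP, 23 to 71 in MkP, 1 to 10 in Erythroid and 9 to 45 in Neutrophil. They ranged from 29 to 55 for IP minus input among types and 1 to 5 for it in LT.HSC. In the Mettl3 set they ranged from 1 to 4 over the 7 types, 0 to 3 in LT.HSC and 0 to 2 for the IP libraries, and from 0 to 2 for wild-type MkP against LT.HSC and 0 to 6 for wild-type LT.HSC against the other 6 types. The remaining counts stayed at 0. For the Mettl3 inputs over 7 types, equal totals gave 3 members and 1 mean per genotype and number gave 0. For the Mettl3 IP libraries, no filter on low values gave 1 member and DESeq2 gave 6.

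The replicate numbers were not taken to pair the samples, since the correlation of deviations was not over 0.1 in every pair of groups: it was over 0.1 in 16 of 120 pairs of atlas input groups, 10 of 120 of atlas IP groups, 56 of 91 of Mettl3 input groups, 32 of 91 of Mettl3 IP groups and 0 of 15 of new RNA groups, and it was 0.019 between the Igf2bp2 groups. With the replicate number as a block, 2 members were called over the 7 types of the Mettl3 inputs and 1 in LT.HSC, beside 60 in LT.HSC of the atlas and 38 for IP minus input among types. For the chase, the members above 0 at all 7 times gave median late to early ratios of 1.10 in LT.HSC and 0.0852 in MkP, and 12 h over 1 h gave 0.0812 and 0.540 over members above 0 at both of those times. For the members above 0 at all 7 times, 12 h over 1 h gave 0.246 in LT.HSC and 0.664 in MkP, against 0.379 and 0.428 for all genes, so in MkP they lay above all genes there and not below.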
